A study of Mus musculus with 12 samples.

Results

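The genes described here are the nuclear genes of oxidative phosphorylation that carried a subunit symbol of complexes I to V and averaged at least 5 CPM (counts scaled to a common library total) over the 12 libraries. Of 53647 genes in the files, 97 had a symbol of the series Ndufa, Ndufb, Ndufc, Ndufs, Ndufv, Sdh, Uqcr, Cox4 to Cox8 or Atp5, and 77 of these reached 5 CPM. The members divide into 36 genes of complex I, 4 of complex II, 8 of complex III, 12 of complex IV and 17 of complex V. Members were thus selected on their mean level over all libraries, and no comparison between groups entered the rule. A gene that is low in some groups could still pass through the others, as Cox6a2 did. Just inside the limit were Atp5s at a mean of 8.12 CPM and Ndufa12 at 12.2 CPM, and just outside it were Ndufb2 at 2.67 CPM and Ndufb4c at 2.49 CPM. Some symbols are older ones: Atp5b is now Atp5f1b, Atp5a1 is Atp5f1a, Atp5g1 to Atp5g3 are Atp5mc1 to Atp5mc3, and Ndufb1-ps stands for Ndufb1. Symbols were taken as the rule reads them, although Ndufa4 is now counted with complex IV, Cox7a2l is a supercomplex factor and Atp5s is a factor linked to the ATP synthase, not a subunit.

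The libraries come from wild-type mouse cells of a pair of lines, DC2.4, an immortalized dendritic cell line, and 4T1, a breast cancer line. Each line received either mRNA for uniSTING, named in the series title as a mimic of the innate immune adaptor STING, or Mock mRNA, which encodes the fluorescent protein EGFP. The mRNA was given with a transfection reagent or in SS-OP lipid nanoparticles, and the labels state neither which of these was used for a library nor how long the mRNA was left on the cells. The remaining groups are DC2.4 cells kept for 24 h with vesicles shed by 4T1 cells, after those had been given uniSTING mRNA (EXOuniSTING) or Mock mRNA (EXOmock). Each of the 6 groups has 2 libraries, called preparation 1 and preparation 2. Nothing in the labels says that preparations came from separate cultures, so every p-value rests on a spread between libraries that may be technical only. The purpose given for the series is to follow type I interferon signalling and downstream pathways after uniSTING, and mitochondrial genes are not named in it.

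Oxidative phosphorylation makes ATP in the inner mitochondrial membrane. Complex I (NADH dehydrogenase) and complex II (succinate dehydrogenase) pass electrons to ubiquinone, complex III (the cytochrome bc1 complex) passes them on to cytochrome c, and complex IV (cytochrome c oxidase) hands them to oxygen. Complexes I, III and IV pump protons, and complex V (ATP synthase) lets the protons flow back through a ring of c subunits that turns its catalytic head. Most subunits are encoded in the nucleus and imported, while a small set is encoded by mitochondrial DNA. Activated dendritic cells and macrophages are known to shift between respiration and glycolysis, and succinate dehydrogenase has a known role in inflammatory macrophages.

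Before any comparison, the cell line labels of the mRNA libraries did not match marker genes. All 10 epithelial markers examined, among them Epcam and Krt8, were expressed in the 4 mRNA libraries labelled DC2.4, where they summed to 5175 to 5444 CPM, against at most 6.16 CPM in the other 8. The 10 leukocyte markers, among them Ptprc and Spi1, summed to 8.53 to 30.5 CPM there, with Itgam at 0, and to 6819 to 12015 CPM in the libraries labelled 4T1 and in the vesicle-treated ones. Groups are therefore called "the libraries labelled DC2.4" or "labelled 4T1" for mRNA throughout, and no statement rests on which line they are. Genes of pancreas and lung (Ins1, Ins2, Sftpc and similar) summed to 80.7 to 183 CPM in every preparation 1 library and to 0 in every preparation 2 library. In edgeR, 0 of the 77 members differed between preparations (5 at an unadjusted p under 0.05), against 118 of 14863 genes, and their largest preparation effect was 0.097 on the log2 scale. Total counts were 14059040 to 25975658 per library, so that 3 counts equal 0.115 to 0.213 CPM. In bulk RNA, fewer cells of a kind and less RNA per cell cannot be told apart.

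Together the 77 genes took 1.12 and 1.12% of all counts in the Mock libraries labelled DC2.4 and 1.35 and 1.37% in the uniSTING ones. The share was 1.43 and 1.43% with Mock and 1.41 and 1.41% with uniSTING in the libraries labelled 4T1. With vesicles it was 1.39 and 1.39% after EXOmock and 1.45 and 1.46% after EXOuniSTING. The Mock libraries labelled DC2.4 thus held the lowest shares of the 12. Preparations of a group differed by far less than Mock and uniSTING did under the DC2.4 label. The step under the 4T1 label was about as small as the difference between the uniSTING preparations labelled DC2.4.

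Summed CPM moved unequally between complexes. Complex IV summed to 1879 and 1903 CPM in the Mock libraries labelled DC2.4 and to 2509 and 2549 CPM in the uniSTING ones, a ratio of means of 1.34. In the libraries labelled 4T1 it went the other way, from 2633 and 2607 CPM to 2377 and 2411 CPM, a ratio of 0.914. With vesicles the ratio for complex IV was 1.07. Ratios for complex II were 1.06, 0.963 and 1.07 in the same order, smaller steps than those between its control levels: 609.8 and 623 CPM in the Mock libraries labelled DC2.4, 1209 and 1228 CPM in those labelled 4T1 and 917 and 917 CPM with EXOmock. Ratios for complexes I, III and V were 1.24, 1.24 and 1.17 under the DC2.4 label, 1.03, 1.08 and 0.988 under the 4T1 label, and 1.03, 1.06 and 1.05 with vesicles. These sums are dominated by the most abundant genes, so the fold changes of single members are given next.

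**Figure D1:**
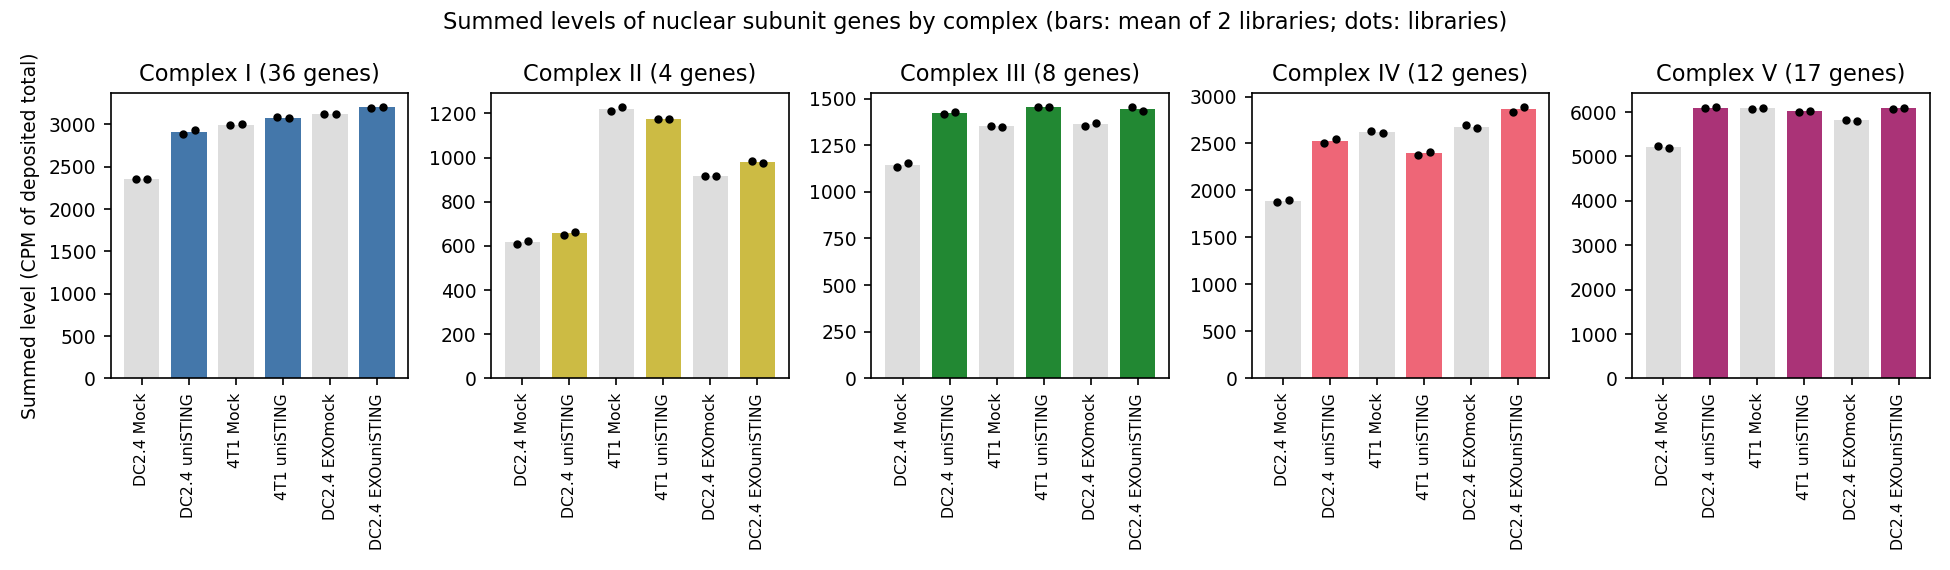
Summed CPM of the members of each complex (y axes, from 0, each with its own scale) in the 6 groups (x axis); bars are means of 2 libraries, grey for controls and coloured for uniSTING groups, and dots are libraries. Complex IV is lowest in the Mock libraries labelled DC2.4 and higher with uniSTING there, while under the 4T1 label the uniSTING bar is below its control.

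Fold changes are log2 values from edgeR, given ± SE, with p-values adjusted by the Benjamini-Hochberg method over all 14863 genes tested, and a gene is called below 0.05. All 77 members passed the filter on low counts. In the libraries labelled DC2.4, 64 of 77 members rose with uniSTING mRNA, 1 fell and 12 were not called, with a median log2 fold change of 0.37. Among all genes tested, 20.8% rose and 20.9% fell there (41.7% in either direction), with a median of 0.00072. In the libraries labelled 4T1, 17 members rose, 23 fell and 37 were not called (background 12.6% higher and 15.7% lower, 28.3% in all), with a median of 0.0040. EXOuniSTING against EXOmock gave 24 members higher, 0 lower by edgeR and 53 not called (background 7.96% higher and 8.14% lower, 16.1% in all), with a median of 0.069. For each edgeR count of 0 below, the count at an unadjusted p under 0.05 and the counts by DESeq2 and limma-voom were also 0, except where another value is given. Most changes were small: 1 member moved by 2-fold or more under the DC2.4 label, and 0 did so in the other 2 uniSTING comparisons. Under the DC2.4 label, both treated libraries lay above both controls in CPM for 67 members and below them for 4. Of all genes tested, 33.45% and 35.69% did so there. These counts were 35 and 28 under the 4T1 label (33.94% and 29.64% of all) and 53 and 7 with vesicles (28.04% and 28.11%). Libraries that do not overlap, as given for single genes below, are thus common over the whole table.

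Some of these counts depended on the processing or on a single library. Removing the trend of fold changes with exonic length left 48 members higher and 1 lower under the DC2.4 label and moved the median from 0.37 to 0.20. That removal ended 17 calls under the DC2.4 label: those of Atp5a1, Atp5d, Atp5s, Cox5a, Cox6a1, Cox6b1, Cox8a, Ndufa13, Ndufa2, Ndufa5, Ndufa8, Ndufb11, Ndufb3, Ndufc2, Ndufs3, Sdhc and Uqcrfs1. It added the call of Ndufs1. The 24 calls with vesicles became 15 without the first EXOmock library, 11 without the second, and 11 without the second EXOuniSTING library.

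**Figure D2:**
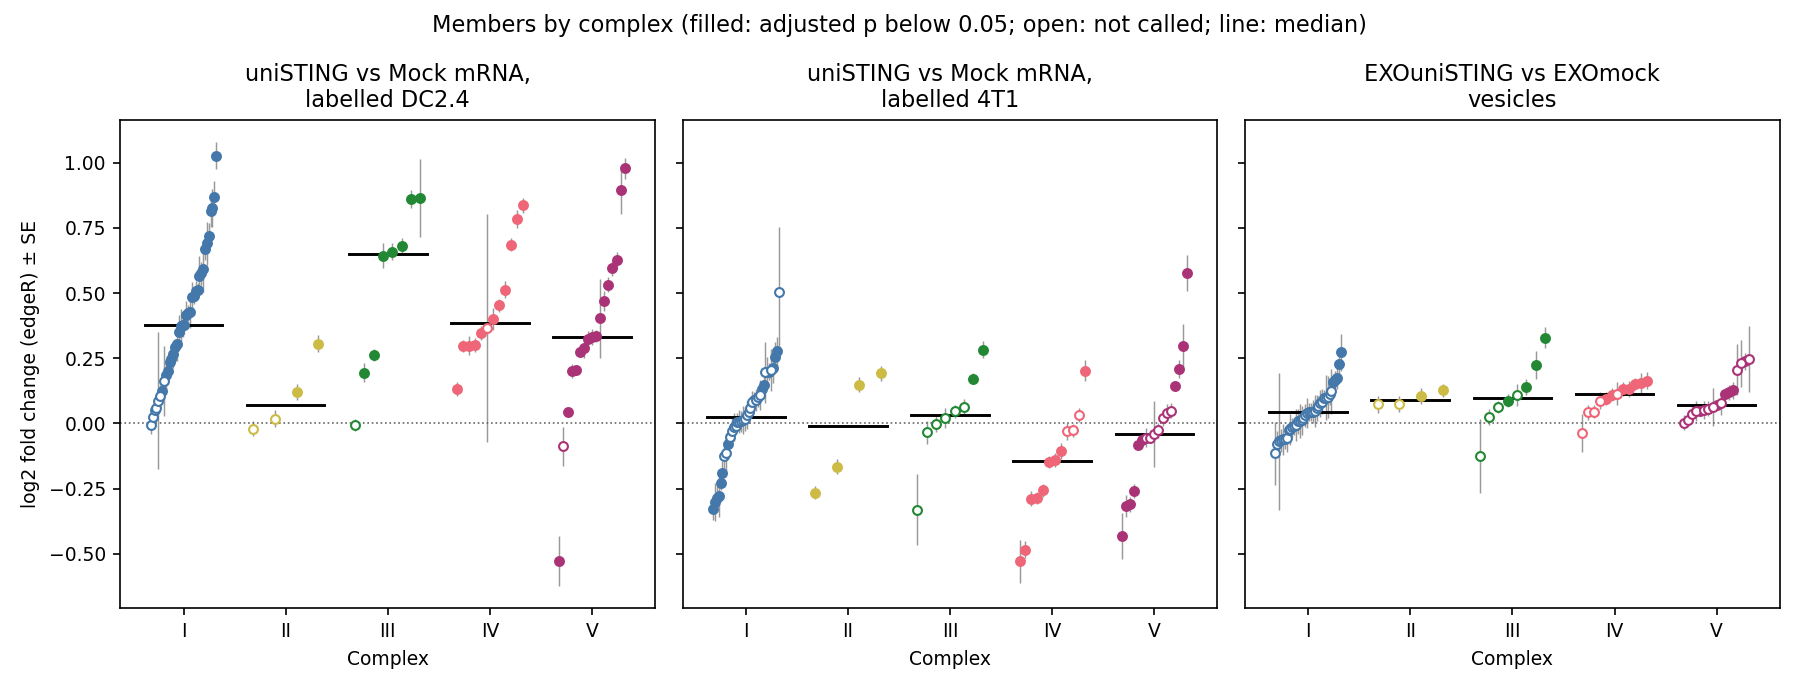
Log2 fold change ± SE (y axis, edgeR) of the 77 members by complex (x axis) in the 3 comparisons; filled points were called at an adjusted p below 0.05, open ones were not, and black lines are medians. Nearly all points lie above 0 under the DC2.4 label, complex IV lies mostly below 0 under the 4T1 label, and the vesicle panel spans a narrow range close to 0.

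In complex I, 29 of 36 members rose and 0 fell under the DC2.4 label, with a median of 0.38. The 7 nuclear core subunits, which carry the flavin and the iron-sulphur clusters, stood apart in size: 3 of 7 rose (Ndufs3, Ndufs8 and Ndufv2) with a median of 0.10, while 26 of the 29 accessory subunits rose with a median of 0.43. With the preparation as a block, Ndufs3 lost its call (adjusted p = 0.0589) and Ndufs7 gained one (adjusted p = 0.0399), and without the length trend Ndufs3 stood at 0.017 (adjusted p = 0.856). Ndufv1, which binds NADH, was at 139 and 142 CPM with Mock and 135 and 142 CPM with uniSTING (-0.0044 ± 0.036, adjusted p = 0.965). Ndufs1, the largest core subunit, was at 135 and 136 CPM with Mock and 136 and 141 CPM with uniSTING (0.051 ± 0.028, adjusted p = 0.166). In both of these the Mock and uniSTING values lay close together, and neither was called in this fit, but Ndufs1 was called higher with the length trend removed (0.18, adjusted p = 0.000126).

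The largest rise of complex I was that of Ndufs6, an accessory subunit of the peripheral arm needed for a late step of assembly. Under the DC2.4 label it read 26 and 25.6 CPM with Mock and 52.4 and 51.5 CPM with uniSTING, so both uniSTING libraries lay far above both Mock ones (1.03 ± 0.053, adjusted p = 2.32e-09). Ndufs6 was flat elsewhere, at 31.3 and 31.3 CPM with Mock and 31.3 and 31.4 CPM with uniSTING under the 4T1 label (-0.028 ± 0.053, adjusted p = 0.759) and 39.1 and 36.7 CPM with EXOmock and 36.0 and 36.7 CPM with EXOuniSTING (-0.056 ± 0.055, adjusted p = 0.586). Ndufb1-ps, the gene of a small membrane-arm subunit, read 20.9 and 18.9 CPM with Mock and 33.6 and 35.7 CPM with uniSTING under the DC2.4 label (0.83 ± 0.073, adjusted p = 5.73e-07). It also led complex I with vesicles, at 31.4 and 31.1 CPM with EXOmock and 36.6 and 38.7 CPM with EXOuniSTING (0.27 ± 0.072, adjusted p = 0.0193), with both EXOuniSTING libraries above both EXOmock ones, although the call was lost without either EXOmock library or the second EXOuniSTING one (adjusted p = 0.0754 to 0.157). Its value under the 4T1 label was -0.11 (adjusted p = 0.3).

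Under the 4T1 label 8 members of complex I rose, 7 fell and 21 were not called. Of all genes tested, 12.6% were higher and 15.7% lower there. The count of falls is near that share and is not read as a response of the complex. Ndufb6, a membrane-arm subunit, showed the largest rise, from 41.8 and 42.2 CPM with Mock to 52.7 and 51.2 CPM with uniSTING (0.28 ± 0.056, adjusted p = 0.00202). Its exons overlap those of Smim27 over 39.0% of their length. Counting did not use strand, so the overlap may affect the counts of both genes. Ndufa6, a LYR-motif subunit that holds the mitochondrial acyl carrier protein, showed the largest fall, at 72.9 and 69.4 CPM with Mock and 56.4 and 58.7 CPM with uniSTING (-0.33 ± 0.042, adjusted p = 5.85e-05). The same gene rose under the DC2.4 label, from 30.0 and 29.2 to 47.2 and 48.7 CPM (0.72 ± 0.05, adjusted p = 5.62e-08), and with vesicles (0.17 ± 0.041, adjusted p = 0.0107), the last call being lost without the second EXOmock or the second EXOuniSTING library (adjusted p = 0.0873 to 0.127). Ndufa1, an X-linked membrane-arm subunit, followed it in the first pair, with 12.1 and 11.7 CPM with Mock and 18.1 and 17.2 CPM with uniSTING under the DC2.4 label (0.59 ± 0.09, adjusted p = 9.88e-05) and 27.3 and 25.4 CPM with Mock and 21.9 and 22.3 CPM with uniSTING under the 4T1 label (-0.28 ± 0.08, adjusted p = 0.0181). The latter call was lost without the first Mock or either uniSTING library (adjusted p = 0.0666 to 0.127). Ndufa4 read 187 and 182 CPM with Mock and 257 and 262 CPM with uniSTING under the DC2.4 label (0.51 ± 0.029, adjusted p = 5.68e-09) and 166 and 165 CPM with Mock and 171 and 165 CPM with uniSTING under the 4T1 label (-0.008 ± 0.03, adjusted p = 0.897). With vesicles 5 members of complex I rose and 0 fell, beside 7.96% higher and 8.14% lower among all genes tested.

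The 4 genes of complex II encode the whole complex. Sdha, the flavoprotein that oxidizes succinate, read 191 and 197 CPM with Mock and 187 and 191 CPM with uniSTING under the DC2.4 label (-0.02 ± 0.028, adjusted p = 0.633). Under the 4T1 label it fell, from 514 and 523 to 442 and 438 CPM (-0.27 ± 0.025, adjusted p = 3.55e-06). With vesicles it rose from 327 and 337 to 370.3 and 356 CPM (0.13 ± 0.027, adjusted p = 0.00541), a call lost without the first EXOmock library (adjusted p = 0.0671). The iron-sulphur subunit gene Sdhb was not called under the DC2.4 label, at 127 and 131 CPM with Mock and 125 and 132 CPM with uniSTING (0.018 ± 0.032, adjusted p = 0.699), and rose under the 4T1 label, at 166 and 163 CPM with Mock and 182 and 188 CPM with uniSTING (0.15 ± 0.029, adjusted p = 0.00168).

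The membrane anchors of complex II also parted under the 4T1 label. Sdhc fell there, at 293 and 301 CPM with Mock and 275 and 266 CPM with uniSTING (-0.16 ± 0.027, adjusted p = 0.000489), and Sdhd rose, at 236 and 241 CPM with Mock and 274 and 282 CPM with uniSTING (0.19 ± 0.029, adjusted p = 0.00025). Under the DC2.4 label both anchors rose, Sdhc from 132 and 132 to 138 and 145 CPM (0.12 ± 0.032, adjusted p = 0.00707) and Sdhd from 159 and 163 to 199.96 and 194 CPM (0.31 ± 0.032, adjusted p = 2.58e-06). In each case the libraries of a group lay close together and those of the other group did not overlap them. Such non-overlap was common among all genes tested. The call of Sdhc under the DC2.4 label was lost without the second Mock or the second uniSTING library (adjusted p = 0.0596 to 0.11). The near-unchanged sum of complex II under the 4T1 label therefore hides 2 genes that rose and 2 that fell.

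Complex III showed the highest median of the 5 complexes under the DC2.4 label, 0.65, with 7 of 8 members called higher and 0 lower by edgeR. The exception was Uqcrc1, a core protein of the matrix side, at 437 and 433 CPM with Mock and 425 and 429 CPM with uniSTING (-0.0058 ± 0.024, adjusted p = 0.897). Its partner core protein Uqcrc2 rose modestly, from 188 and 190.2 to 223 and 225 CPM (0.26 ± 0.023, adjusted p = 4.41e-07), as did the Rieske iron-sulphur protein gene Uqcrfs1, from 151 and 155 to 167 and 178 CPM (0.20 ± 0.036, adjusted p = 0.000596). The rises of the small accessory genes were larger. Uqcrh, the acidic hinge subunit that helps cytochrome c dock, read 65.8 and 64.6 CPM with Mock and 118 and 116 CPM with uniSTING (0.86 ± 0.036, adjusted p = 2.74e-10). Uqcrb had the numerically largest value, 0.86, but its libraries were scattered, at 35.7 and 51.5 CPM with Mock and 83.2 and 76.2 CPM with uniSTING, with an SE of 0.15; 25.5% of the 50-base windows of its transcripts also occur in transcripts of other genes (GENCODE M21).

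Uqcrh was the leading member of the whole list with vesicles, at 72.1 and 68.4 CPM with EXOmock and 87.8 and 88.2 CPM with EXOuniSTING (0.33 ± 0.039, adjusted p = 7.05e-05), whereas under the 4T1 label it stood at 110.4 and 113 CPM with Mock and 114 and 114 CPM with uniSTING (-0.00042 ± 0.033, adjusted p = 1). Uqcrq, the ubiquinone-binding small subunit, rose under both mRNA labels: 134 and 135 CPM with Mock and 209 and 210.0 CPM with uniSTING under DC2.4 (0.66 ± 0.033, adjusted p = 1.64e-09) and 164 and 169.7 CPM with Mock and 207 and 208 CPM with uniSTING under 4T1 (0.28 ± 0.032, adjusted p = 1.68e-05). With vesicles Uqcrq read 226 and 216 CPM with EXOmock and 219 and 229 CPM with EXOuniSTING (0.025 ± 0.032, adjusted p = 0.667), with overlapping libraries. Complex III had 2 members higher and 0 lower by edgeR under the 4T1 label (1 lower at an unadjusted p under 0.05, Uqcrb, which edgeR called lower there without the filter on low counts, at -0.34 with adjusted p = 8.45e-12, and with only the libraries compared, at -0.31 with adjusted p = 0.00998), and 4 higher and 0 lower with vesicles.

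For complex IV, 11 of 12 members rose under the DC2.4 label and 8 of 12 fell under the 4T1 label, where 1 rose. The X-linked Cox7b, a small subunit of the membrane part, rose from 84.8 and 82.3 to 147 and 147 CPM under the DC2.4 label (0.84 ± 0.028, adjusted p = 3.98e-11). It fell under the 4T1 label, from 235 and 229.7 to 213 and 214 CPM (-0.15 ± 0.024, adjusted p = 0.000371). Cox7c, another small membrane subunit, went from 85.4 and 84.4 to 144 and 144 CPM under the DC2.4 label (0.78 ± 0.035, adjusted p = 5.84e-10). It showed a fall of similar form under the 4T1 label, from 170.4 and 166 to 122 and 123 CPM (-0.48 ± 0.032, adjusted p = 1.51e-07), and a rise with vesicles, from 176 and 171 to 187 and 199.88 CPM (0.16 ± 0.032, adjusted p = 0.00344). In each of these pairs the treated libraries lay outside the range of the controls, and the vesicle call of Cox7c was lost without the second EXOmock or the second EXOuniSTING library (adjusted p = 0.0517 to 0.0606). Of Cox7c windows, 22.1% also occur in other genes.

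Cox4i1, Cox5a, Cox6b1 and Cox8a had smaller fold changes than Cox7b and Cox7c under the DC2.4 label. Cox4i1, the ubiquitous form of the regulatory subunit that binds ATP, read 483 and 481 CPM with Mock and 646 and 656 CPM with uniSTING under the DC2.4 label (0.45 ± 0.025, adjusted p = 4.15e-09) and 526 and 523 CPM with Mock and 518 and 532 CPM with uniSTING under the 4T1 label (-0.027 ± 0.025, adjusted p = 0.46). Cox5a rose least among the called genes of complex IV under the DC2.4 label, at 128 and 129 CPM with Mock and 137 and 141 CPM with uniSTING (0.13 ± 0.027, adjusted p = 0.00107). Cox6b1, which faces cytochrome c, read 104 and 109.6 CPM with Mock and 129 and 129.6 CPM with uniSTING (0.30 ± 0.037, adjusted p = 1.56e-05) and, under the 4T1 label, 168 and 171 CPM with Mock and 171 and 169 CPM with uniSTING (-0.029 ± 0.033, adjusted p = 0.564). Cox8a, a small membrane subunit, rose under the DC2.4 label, at 289.6 and 294 CPM with Mock and 359 and 374 CPM with uniSTING (0.35 ± 0.029, adjusted p = 2.7e-07). It fell under the 4T1 label, at 357 and 344 CPM with Mock and 285 and 299 CPM with uniSTING (-0.29 ± 0.028, adjusted p = 5.52e-06). With vesicles 7 members of complex IV rose and 0 fell by edgeR, with log2 fold changes of at most 0.16.

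In complex V, 15 of 17 members rose and 1 fell under the DC2.4 label. The catalytic head includes Atp5b, the beta subunit, which alone took 15.3 to 21.1% of the counts of all members. Atp5b read 2358 and 2322 CPM with Mock and 2654 and 2665 CPM with uniSTING under the DC2.4 label (0.20 ± 0.017, adjusted p = 4.07e-07), 2210.5 and 2241 CPM with Mock and 2150.2 and 2189.5 CPM with uniSTING under the 4T1 label (-0.064 ± 0.017, adjusted p = 0.0132) and 2179.5 and 2134 CPM with EXOmock and 2253 and 2272 CPM with EXOuniSTING (0.069 ± 0.018, adjusted p = 0.0162). Its partner Atp5a1, the alpha subunit, read 948 and 947 CPM with Mock and 967 and 963 CPM with uniSTING under the DC2.4 label (0.045 ± 0.015, adjusted p = 0.0279), a direction that turned when the length trend was removed (-0.0093, adjusted p = 0.686). That call was also absent by DESeq2 (adjusted p = 0.133), with DESeq2 size factors (adjusted p = 0.0541), without the filter on low counts (adjusted p = 0.0937) and without any 1 of the 4 libraries (adjusted p = 0.0658 to 0.163). Atp5a1 read 1519 and 1521 CPM with Mock and 1460.4 and 1466 CPM with uniSTING under the 4T1 label (-0.082 ± 0.015, adjusted p = 0.00102). For Atp5b, the call under the 4T1 label was lost without the second Mock or the first uniSTING library (adjusted p = 0.136 to 0.146), and the call with vesicles without the second EXOmock or the second EXOuniSTING library (adjusted p = 0.102 to 0.128).

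Away from the head, small membrane subunits of complex V moved further. Atp5mpl, a small proteolipid-like subunit, read 65.9 and 70.6 CPM with Mock and 133 and 133 CPM with uniSTING under the DC2.4 label (0.98 ± 0.04, adjusted p = 2.49e-10). The 4T1-labelled pair showed a fall, from 77.2 and 77.5 to 61.5 and 64.9 CPM (-0.32 ± 0.043, adjusted p = 8.9e-05). Atp5k, the e subunit of the dimer interface, went from 13.2 and 14.3 to 24.8 and 25.7 CPM (0.89 ± 0.09, adjusted p = 2.1e-06) and, under the 4T1 label, from 22.4 and 24.4 to 17.9 and 17.5 CPM (-0.43 ± 0.087, adjusted p = 0.00208). Atp5l, the g subunit of the same interface, took the other course, with 20 and 20.1 CPM with Mock and 17.8 and 19.3 CPM with uniSTING under the DC2.4 label (-0.088 ± 0.073, adjusted p = 0.378) and 22.4 and 22.4 CPM with Mock and 33.4 and 34.8 CPM with uniSTING under the 4T1 label (0.58 ± 0.068, adjusted p = 2.75e-05). The e and g subunit genes thus differed in direction under the 4T1 label. Atp5e, the epsilon subunit of the central stalk, was the leading called member of complex V with vesicles, at 117 and 118 CPM with EXOmock and 142 and 136 CPM with EXOuniSTING (0.24 ± 0.032, adjusted p = 0.000201).

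Responses under the DC2.4 and 4T1 labels come from separate libraries and were set side by side. Of the 64 members that rose under the DC2.4 label and the 23 that fell under the 4T1 label, 19 were in both lists, 29.7% of the first and 82.6% of the second. Of the same 64 and the 17 that rose under the 4T1 label, 14 were in both, 21.9% of the first and 82.4% of the second. Both shares of the second lists are close to the 83.1% of all 77 members that rose under the DC2.4 label, so the overlaps are no larger than that share gives. The 19 included 7 of the 12 complex IV genes (Cox5b, Cox6a1, Cox6c, Cox7a2l, Cox7b, Cox7c and Cox8a) and 6 of complex V (Atp5a1, Atp5b, Atp5d, Atp5g2, Atp5k and Atp5mpl). They held 5 genes of complex I (Ndufa1, Ndufa13, Ndufa3, Ndufa6 and Ndufv3), 1 of complex II (Sdhc) and 0 of complex III. Ndufv2, a core subunit with an iron-sulphur cluster, was the 1 member called higher in all 3 comparisons, and 5 members were called in none: Ndufa12, Ndufa9, Ndufs1, Ndufs7 and Ndufv1.

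**Figure D3:**
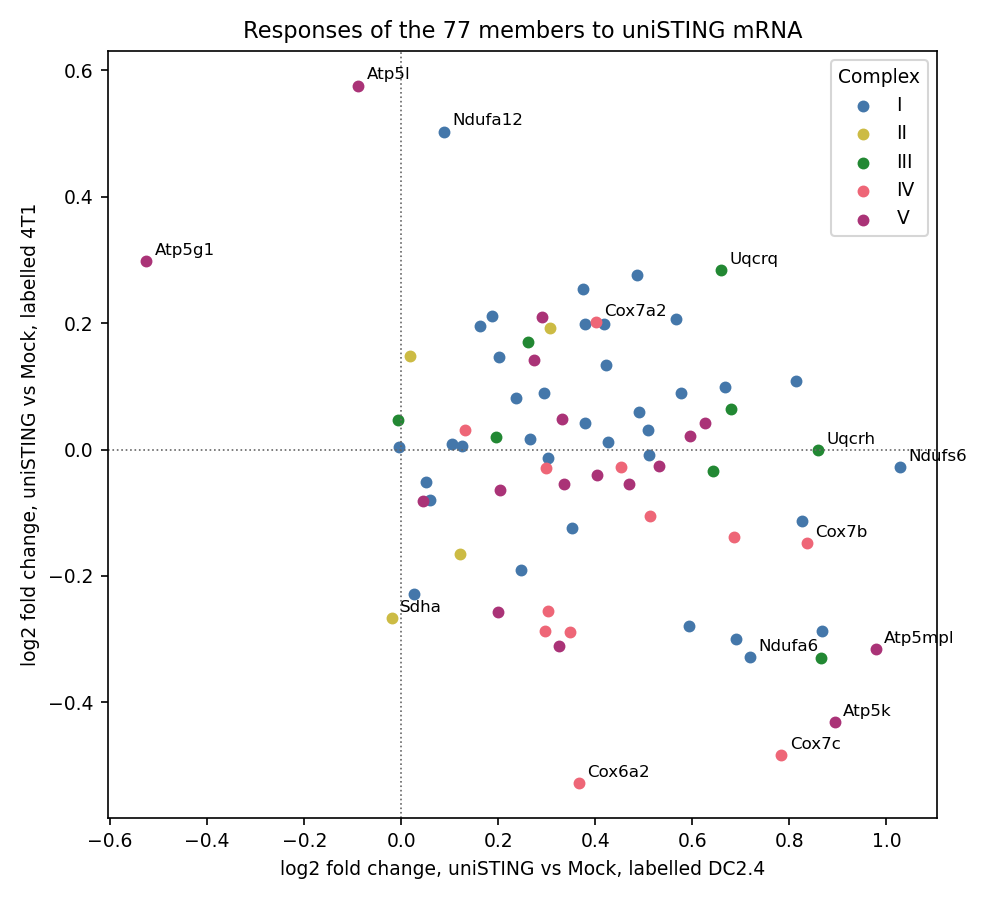
Log2 fold change of each of the 77 members with uniSTING mRNA under the DC2.4 label (x axis) and under the 4T1 label (y axis), both from edgeR, coloured by complex. Complex IV points gather to the right and below 0, Atp5g1 is alone at the far left, and Atp5l and Ndufa12 are highest; Ndufa12 was not called in either comparison.

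The difference of the mRNA responses, DC2.4 label minus 4T1 label, was tested as a contrast in the same fit. It was called higher for 57 members and lower for 3 (background 16% higher and 15.1% lower, 31.1% in all), with a median of 0.38. Every complex had members called higher in it: 25 of 36 in complex I, 2 of 4 in complex II, 7 of 8 in complex III, 10 of 12 in complex IV and 13 of 17 in complex V. The smallest adjusted p-values among the higher ones were those of Cox7b (difference 0.98 ± 0.037, adjusted p = 2.06e-10), Cox7c (1.27 ± 0.047, adjusted p = 1.97e-10) and, with equal adjusted p, Atp5mpl (1.29 ± 0.059, adjusted p = 1.48e-09) and Cox6c (0.82 ± 0.037, adjusted p = 1.48e-09). Only Atp5g1 (-0.82 ± 0.13, adjusted p = 0.000181), Atp5l (-0.66 ± 0.10, adjusted p = 0.00016) and Sdhb (-0.13 ± 0.043, adjusted p = 0.034) were called lower in the fit over all libraries. The call of Sdhb was lost without any 1 of 5 of the 8 libraries (adjusted p = 0.0751 to 0.173: both Mock and the second uniSTING library labelled 4T1, the second Mock and the first uniSTING library labelled DC2.4), and with DESeq2, without the filter on low counts and with only the libraries compared.

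The 4T1 label and the vesicle libraries both expressed leukocyte markers, and their responses were compared in the same way. The mRNA response under the 4T1 label was above the vesicle response for 9 members and below it for 29 (background 13% higher and 15% lower, 28% in all), with a median of -0.079. With the length trend removed the division was 5 and 32, and 5 members were higher with DESeq2 and without the second EXOuniSTING library. In complex IV, 10 of 12 members were lower in this contrast and 0 higher by edgeR. Cox7c (-0.65 ± 0.045, adjusted p = 3.15e-07), Cox6a1 (-0.44 ± 0.033, adjusted p = 5.59e-07) and Sdha (-0.39 ± 0.036, adjusted p = 3.48e-06) had the smallest adjusted p among the lower ones. Uqcrq (0.26 ± 0.045, adjusted p = 0.000689), Atp5l (0.51 ± 0.10, adjusted p = 0.00164) and Atp5f1, the b subunit of the peripheral stalk (0.13 ± 0.026, adjusted p = 0.00204), had the smallest among the higher ones. Leukocyte markers also differed in the vesicle comparison, but not all in the same direction. The 10 markers summed to 11939 and 12015 CPM with EXOmock and to 10077 and 9307 CPM with EXOuniSTING. Lyz2 alone fell by more than this sum did, at 8613 and 8638 CPM against 6545 and 5769 CPM. Other markers went either way. Cd68 rose, at 836 and 859 CPM against 973 and 965 CPM, and Itgam fell, at 139 and 138 CPM against 114 and 118 CPM. Ptprc read 309 and 310.3 CPM against 305 and 302 CPM. Their part in the results on the members was not tested.

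Some subunits are made by alternative genes, and these did not move together. Subunit c, which forms the rotating ring of ATP synthase, is encoded by Atp5g1, Atp5g2 and Atp5g3, which yield the same mature protein. Per exonic kb, Atp5g1 was the lowest of the 3 in every library, with 2.57 and 2.70% of the set in the Mock libraries labelled DC2.4 and 1.58 and 1.38% in the uniSTING ones. Atp5g1 was the single member that fell under the DC2.4 label, from 17.4 and 18.1 to 13.1 and 11.3 CPM (-0.53 ± 0.10, adjusted p = 0.000479). It rose under the 4T1 label, from 26.5 and 28.3 to 35.6 and 33.4 CPM (0.30 ± 0.082, adjusted p = 0.014). Treated and control libraries did not overlap in either pair, and the 4T1-labelled call was lost without the first Mock or the first uniSTING library (adjusted p = 0.0884 to 0.0969).

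Atp5g2 did the reverse of Atp5g1. It read 79.5 and 78.6 CPM with Mock and 95.4 and 99.6 CPM with uniSTING under the DC2.4 label (0.33 ± 0.031, adjusted p = 1.22e-06) and 112 and 112 CPM with Mock and 91.3 and 92.7 CPM with uniSTING under the 4T1 label (-0.31 ± 0.029, adjusted p = 3.78e-06). Atp5g3 rose under the DC2.4 label, at 189 and 186 CPM with Mock and 238 and 229 CPM with uniSTING (0.33 ± 0.029, adjusted p = 5.67e-07), and was not called under the 4T1 label, at 226 and 227 CPM with Mock and 239.8 and 238 CPM with uniSTING (0.049 ± 0.028, adjusted p = 0.233). Per exonic kb, Atp5g3 was the highest of the 3 in the 8 mRNA libraries. Atp5g2 was the highest by that measure in the 4 vesicle libraries, where it took 52.8 and 51.5% with EXOmock. The order with vesicles depended on the division by length. By share of CPM Atp5g3 was the highest there too, with 48.6 and 49.5% for EXOmock against 44.5 and 43.0% for Atp5g2. Part of the Atp5g2 and Atp5g1 sequence (38.3% and 11.1% of 50-base windows) also occurs in other genes, so counts of unique reads may run low for both.

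Subunit COX6A has a ubiquitous form, Cox6a1, and a form known from heart and skeletal muscle, Cox6a2. Cox6a2 was at 0.171 and 0.408 CPM in the Mock and 0.478 and 0.319 CPM in the uniSTING libraries labelled DC2.4, which is at or near the level of 3 counts. In the libraries that expressed leukocyte markers it was clearly present, at 25.5 and 25.4 CPM with Mock and 17.5 and 18.5 CPM with uniSTING under the 4T1 label and at 58.9 and 59.5 CPM with EXOmock and 60.0 and 55.7 CPM with EXOuniSTING. Cox6a2 reached the 5 CPM mean only through these libraries. Its lower level under the DC2.4 label is thus tied to the rule and is no separate result. Per exonic kb Cox6a2 made up 7.06 and 6.97% of COX6A in the Mock libraries labelled 4T1 and 15.7 and 16.1% with EXOmock. Cox6a2 fell under the 4T1 label (-0.53 ± 0.083, adjusted p = 0.000308) and was not called with vesicles (-0.037 ± 0.073, adjusted p = 0.81). Its exons overlap those of the integrin gene Itgad over 10.3% of their length, and Itgad had 0 to 5 counts per library. Of 10 heart and muscle markers, Tnnt2 was the 1 with a sizeable level, at 173 to 201 CPM in the mRNA libraries labelled DC2.4, while the 10 summed to 1.76 to 2.96 CPM in the libraries where Cox6a2 was present.

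Cox6a1, by contrast, was abundant in every library. It rose under the DC2.4 label, at 217 and 219 CPM with Mock and 261 and 267 CPM with uniSTING (0.30 ± 0.024, adjusted p = 2.39e-07). In the 4T1-labelled pair it fell, at 347 and 350.3 CPM with Mock and 289 and 293 CPM with uniSTING (-0.29 ± 0.023, adjusted p = 9.34e-07), and with vesicles it rose, at 327 and 320.3 CPM with EXOmock and 359 and 359.8 CPM with EXOuniSTING (0.15 ± 0.024, adjusted p = 0.000726). Cox7a2 and Cox7a2l, related in sequence, also parted under the 4T1 label. Cox7a2 was the 1 complex IV gene that rose there, at 96.0 and 94.0 CPM with Mock and 114 and 108 CPM with uniSTING (0.20 ± 0.04, adjusted p = 0.00193), and Cox7a2l, which links complexes III and IV in supercomplexes, fell, at 277 and 279.6 CPM with Mock and 238 and 238 CPM with uniSTING (-0.26 ± 0.025, adjusted p = 5.52e-06). Both rose under the DC2.4 label, Cox7a2 from 84.6 and 89.7 to 114 and 114 CPM (0.40 ± 0.041, adjusted p = 2.5e-06) and Cox7a2l from 147 and 154 to 184 and 183 CPM (0.30 ± 0.027, adjusted p = 6.82e-07). Of the COX7A set, Cox7a2l took 63.9 and 64.3% per exonic kb in the Mock and 55.9 and 57.2% in the uniSTING libraries labelled 4T1.

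**Figure D4:**
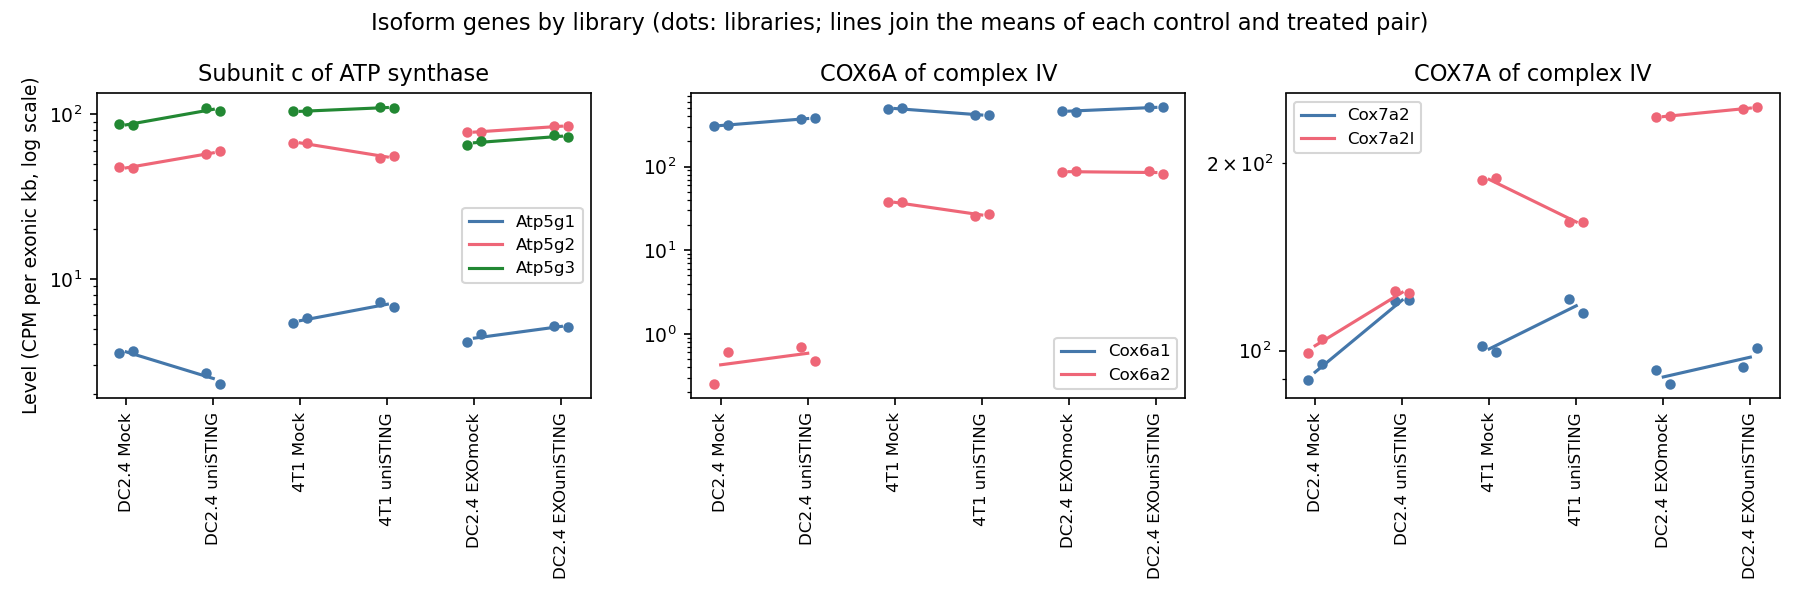
Level per exonic kb (y axis, log scale) of the genes for subunit c, COX6A and COX7A in the 6 groups (x axis); dots are libraries and lines join the means of a control and its uniSTING group. Atp5g1 goes down under the DC2.4 label and up under the 4T1 label, and Cox6a2 lies below 1 CPM per kb in the libraries labelled DC2.4 for mRNA.

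Levels without uniSTING also differed between the Mock libraries, which are the controls of the comparisons above and so are shared with them. In Mock under the DC2.4 label against Mock under the 4T1 label, 13 members were higher and 56 lower, against 42.4% and 40.5% of all genes tested (83% in either direction), with a median of -0.36. Cox7b, at 84.8 and 82.3 against 235 and 229.7 CPM (-1.40 ± 0.027, adjusted p = 1.46e-15), Sdha, at 191 and 197 against 514 and 523 CPM (-1.34 ± 0.027, adjusted p = 2e-15), and Atp5a1 (-0.61 ± 0.015, adjusted p = 2.84e-14) had the smallest adjusted p among the lower ones. Ndufb9, a LYR-motif subunit, was higher under the DC2.4 label, at 109 and 112 against 43.0 and 38.6 CPM (1.52 ± 0.047, adjusted p = 3.31e-13), as were Ndufb5 (1.03 ± 0.04, adjusted p = 4.87e-12) and Uqcrfs1 (0.46 ± 0.038, adjusted p = 3.35e-08). All 4 complex II genes were lower under the DC2.4 label. Cox6a2, also among the lower ones, reached the 5 CPM mean only through libraries other than the mRNA libraries labelled DC2.4. Marker genes differed between the same libraries, so this comparison and the identity of the cells cannot be told apart.

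The members have short coding sequences, and under the DC2.4 label the response went with length over the whole table. Coding length had a median of 426 nt over 76 members with a value, against 1383 nt over 12544 tested genes. Spearman's rho between coding length and log2 fold change under the DC2.4 label was -0.63 over the members and -0.39 over all tested genes. These are descriptions across genes, which share the same libraries. Under the 4T1 label the values were 0.13 and -0.10, and with vesicles -0.15 and -0.10.

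Members and other genes of similar coding length were set side by side under the DC2.4 label. At up to 300 nt the median log2 fold change was 0.63 for 20 members and 0.34 for 216 other genes. From 301 to 450 nt it was 0.33 for 23 members against 0.25 for 619 others, and from 451 to 600 nt it was 0.38 for 13 against 0.17 for 739. From 601 to 900 nt it was 0.27 for 9 against 0.13 for 1737, from 901 to 1500 nt 0.058 for 7 against 0.046 for 3500, and from 1501 to 3000 nt 0.048 for 4 against -0.060 for 3903. Both medians were highest in the shortest class, and the classes above 900 nt hold few members. The removal given above used exonic length, for which rho under the DC2.4 label was -0.43 over the members and -0.30 over all tested genes. A trend with coding length was not removed. How far it takes part in the rise of the list was not tested.

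**Figure D5:**
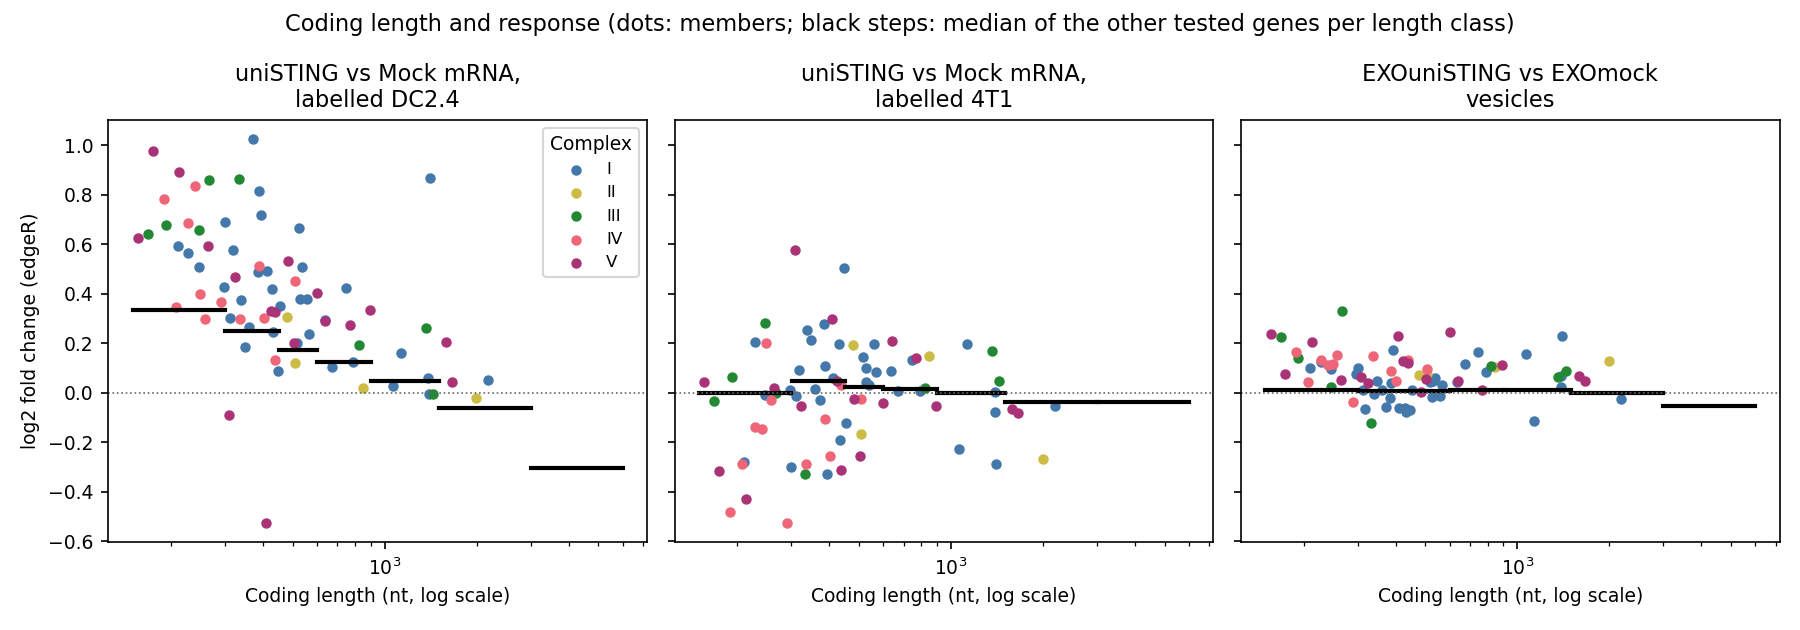
Log2 fold change (y axis, edgeR) against coding length (x axis, nt, log scale) for 76 members, coloured by complex, in the 3 comparisons; black steps are medians of the other tested genes in each length class, the last class being open to longer genes. Under the DC2.4 label both dots and steps fall from left to right, while the steps are close to level in the other panels.

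Many nuclear genes of this group are known to carry sites for NRF1, ETS factors of the GABP kind and YY1 near their start. Promoters were read from RefSeq (GRCm38.p6), from 250 bases before to 50 after the annotated start, for the 64 members with an entry. Letters were searched on both strands. The NRF1 motif, GCGCA then any base then GCGC, occurred in 26.6% of the 64 members and in 5.19% of 27025 genes, the ETS motif CCGGAAG in 25% and 9.93%, the YY1 motif AAGATGGCG in 10.9% and 1.64%, and the ERR motif TCAAGGTCA in 3.13% and 0.466%. The SP1 motif GGGCGG, found in 40.6% of members and 38.2% of all, was about as common in both. None of these motifs contains another, and such matches are descriptions of letters, not of bound sites.

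To show what lies before genes that answered differently, the 100 bases before the start are printed for the member with the highest and the one with the lowest log2 fold change under the DC2.4 label in each complex, among members with an entry. Capitals mark matches to the motifs above on either strand. Complex I is represented by Ndufs6 (chr13:73328483-73328582, minus strand) and Ndufv1 (chr19:4012756-4012855, minus strand).
Ndufs6: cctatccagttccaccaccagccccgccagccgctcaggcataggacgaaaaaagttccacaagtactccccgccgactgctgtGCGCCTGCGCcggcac
Ndufv1: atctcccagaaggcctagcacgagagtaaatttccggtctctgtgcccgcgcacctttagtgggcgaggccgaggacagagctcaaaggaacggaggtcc
Ndufs6, with a rise of 1.03, holds an NRF1 match, and Ndufv1, at -0.0044, holds none of the 5 motifs in this stretch. Complex II is represented by Sdhd (chr9:50603850-50603949, minus strand) and Sdha (chr13:74350241-74350340, minus strand).
Sdhd: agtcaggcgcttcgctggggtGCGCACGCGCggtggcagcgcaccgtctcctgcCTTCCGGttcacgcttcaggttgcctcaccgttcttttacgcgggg
Sdha: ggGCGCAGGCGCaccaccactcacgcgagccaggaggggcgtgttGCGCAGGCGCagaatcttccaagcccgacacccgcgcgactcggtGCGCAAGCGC
Both hold NRF1 matches, and Sdha, which did not move under the DC2.4 label beyond its error, holds several of them. Complex III is represented by Uqcrh (chr4:116075071-116075170, minus strand) and Uqcrc1 (chr9:108936548-108936647, plus strand).
Uqcrh: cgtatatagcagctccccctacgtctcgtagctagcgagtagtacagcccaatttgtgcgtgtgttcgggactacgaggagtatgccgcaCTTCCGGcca
Uqcrc1: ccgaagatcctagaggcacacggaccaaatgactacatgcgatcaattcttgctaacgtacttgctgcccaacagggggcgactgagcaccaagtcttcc
Uqcrh holds an ETS match close to its start. Uqcrc1 holds none of the motifs in these 100 bases, but it holds an NRF1 match in the longer window searched above. Complex IV is represented by Cox7b (chrX:106015600-106015699, plus strand) and Cox5a (chr9:57521132-57521231, plus strand).
Cox7b: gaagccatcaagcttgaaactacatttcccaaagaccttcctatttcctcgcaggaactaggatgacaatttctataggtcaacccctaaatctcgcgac
Cox5a: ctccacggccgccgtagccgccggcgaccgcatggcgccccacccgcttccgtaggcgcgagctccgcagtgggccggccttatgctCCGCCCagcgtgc
Cox7b, the leading riser of complex IV, holds none of the motifs here. Complex V is represented by Atp5k (chr5:108434400-108434499, minus strand) and Atp5g1 (chr11:96075632-96075731, minus strand).
Atp5k: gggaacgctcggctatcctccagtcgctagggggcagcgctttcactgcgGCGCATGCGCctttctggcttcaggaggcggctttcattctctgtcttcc
Atp5g1: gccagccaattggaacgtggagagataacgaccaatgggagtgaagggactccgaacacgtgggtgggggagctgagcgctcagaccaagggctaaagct
Atp5k, which rose by 0.89, holds an NRF1 match and Atp5g1, which fell, holds none of the motifs. Over these 10 stretches the motifs occur in genes that moved and in genes that did not.

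Other genes of the pathway were counted from lists that hold no member. Beside these counts, 20.8% of all genes tested were higher and 20.9% lower under the DC2.4 label. The shares were 12.6% and 15.7% under the 4T1 label and 7.96% and 8.14% with vesicles. The 4 subunit or regulator genes outside the symbol series rose under both mRNA labels (4 of 4 each). They are Cyc1, the cytochrome c1 of complex III, Ndufab1, the acyl carrier protein of complex I, Usmg5, a subunit of the ATP synthase dimer, and Atpif1, the inhibitor of ATP synthase hydrolysis. In the 4T1-labelled pair their log2 fold changes were 0.24, 0.27, 0.34 and 0.14, in contrast to the complex IV members.

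The 12 tested subunit genes of mitochondrial DNA did not follow the nuclear members. While most nuclear members rose under the DC2.4 label, 9 of these 12 fell and 0 rose by edgeR, with a median of -0.16. For the 4T1 label 8 rose and 1 fell, with a median of 0.30, and with vesicles 1 rose and 0 fell by edgeR. mt-Co1, the catalytic subunit of complex IV, read 4924 and 4879 CPM with Mock and 4644 and 4564 CPM with uniSTING under the DC2.4 label (-0.071, adjusted p = 5.38e-05). mt-Nd5 of complex I read 1128 and 1111 CPM with Mock and 941 and 936 CPM with uniSTING there (-0.24, adjusted p = 1.2e-07) and 1179 and 1150.1 CPM with Mock and 1459 and 1419.8 CPM with uniSTING under the 4T1 label (0.28, adjusted p = 1.13e-07). Values for both mt genes were picked after they were seen. The labels do not say how RNA was selected for the libraries, a step that bears on mitochondrial transcripts.

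Mitochondrial ribosomal protein genes, which serve translation of those transcripts, rose in 57 of 77 tested cases and fell in 0 by edgeR under the DC2.4 label. For the 4T1 label 33 of 77 rose and 3 fell, and with vesicles 3 rose and 2 fell. Assembly factors of the complexes gave 17 higher and 4 lower of 48 under the DC2.4 label and 11 and 4 under the 4T1 label. With vesicles they gave 3 and 5, near the shares over all genes and not read as a response. Higd1a, a factor of complex IV assembly, was the factor with the largest rise under the DC2.4 label, at 30.5 and 29.0 CPM with Mock and 61.1 and 64.3 CPM with uniSTING (1.10, adjusted p = 1.72e-09), and Lrpprc, which stabilizes mitochondrial mRNA, fell in all 3 comparisons (-0.31, -0.12 and -0.18).

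Enzymes of the tricarboxylic acid cycle gave 8 higher and 2 lower of 19 under the DC2.4 label, 2 and 11 under the 4T1 label and 5 and 1 with vesicles. Carriers, cytochrome c and quinone partners gave 11 and 1 of 26, then 4 and 7, then 9 and 0 by edgeR (1 lower at an unadjusted p under 0.05). Of 21 transcription regulators of mitochondrial genes, 1 rose and 2 fell with vesicles, near the shares over all genes. For the 4T1 label 1 rose and 6 fell, and for the DC2.4 label 3 rose and 11 fell. Under the DC2.4 label these included Nrf1, at 65.1 and 61.2 CPM with Mock and 53.9 and 55.8 CPM with uniSTING (-0.18, adjusted p = 0.00872), and Gabpa, at 106 and 102 CPM with Mock and 89.4 and 92.9 CPM with uniSTING (-0.17, adjusted p = 0.00345), which were lower while most members were higher. Esrra, the nuclear receptor ERR alpha, was higher, at 35.2 and 36.7 CPM with Mock and 41.0 and 41.2 CPM with uniSTING (0.21, adjusted p = 0.00396). The genes of this and the preceding list that are given with values were picked after their values were seen.

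Of the 97 symbols, 20 averaged under 5 CPM, and 4 of these had 0 counts in every library. Tissue-restricted forms were among them. Cox7a1, the heart and muscle form of COX7A, had 2 to 7 counts in the mRNA libraries labelled DC2.4, 43 to 80 in those labelled 4T1 and 20 to 72 in the vesicle libraries. Per exonic kb it was at 2.659 and 2.399 CPM with EXOmock and 6.76 and 6.34 CPM with EXOuniSTING, and this rise was called by edgeR (1.37 ± 0.28, adjusted p = 0.00488). Its call held without any 1 of these 4 libraries (adjusted p = 0.0251 to 0.048), and the gene was not called under the DC2.4 label (adjusted p = 0.294) or the 4T1 label (adjusted p = 0.769). DESeq2 gave no adjusted p for Cox7a1 with vesicles, where its log2 fold change was 1.38. Of the other symbols under 5 CPM, edgeR called Ndufs6b higher under the DC2.4 label (1.52 ± 0.29, adjusted p = 0.000676). Under the 4T1 label it called Ndufb4c higher (1.23 ± 0.26, adjusted p = 0.00277). These values of Cox7a1, Ndufs6b and Ndufb4c were added after they were seen. Cox4i2, a lung form, had 0 to 3 counts per library, and Ndufa4l2, a gene known to respond to hypoxia, had 0 to 4. Cox8b and Cox6b2, forms of muscle and testis, had 0 to 2 and 0 to 3 counts. At this depth, counts of 0 to 4 allow no comparison between groups.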

How the data were processed

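The labels place 12 RNA-seq libraries in 6 groups of 2 preparations, each made from 1.0 µg of total RNA. The values are gene counts as deposited by the authors. The submitters' processing notes name HISAT2 and GRCm39. The file headers show that featureCounts 2.0.1 counted uniquely mapped read pairs over exons of Ensembl release 103, with no strand option. Genes with close copies may therefore be undercounted, and counts of overlapping genes may be affected by the overlap. Of 53647 identifiers, 52093 were given a symbol by the reference table of names.

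Members were counted in CPM of the deposited totals, whose range in the report sets the level of 3 counts. Levels were compared between genes per exonic kb, and for subunit c shares of CPM are given as well. Differences were tested with edgeR 4.0.16 in R 4.3.3: 1 mean per group over all 12 libraries, TMM factors, filterByExpr, the quasi-likelihood test and Benjamini-Hochberg adjustment over 14863 genes at 0.05 (common biological coefficient of variation 3.05%). Differences of responses were contrasts of the same fit, and each SE was derived from a fold change and its F value. The fitting script was tested on simulated counts. The alternatives tried were the DESeq2 1.42.0 Wald test, its size factors in edgeR, limma-voom (limma 3.58.1), no filter on low counts, only the libraries compared, removal of the length trend (lowess, span 0.3), the preparation as a block, other CPM limits, TMM-scaled levels and leaving out each library. The labels pair preparations by number only. Same-numbered preparations deviated together over all tested genes in all 15 pairs of groups (r of 0.32 to 0.58). Over the members r was -0.43 to 0.40. Every preparation 1 library also shares the pancreas and lung genes, so these values do not show that particular samples are paired. The main fit used no pairing, and the block fit used the numbers as pairs.

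Genes named with values were, per comparison and complex, the called members with the largest rise and fall, a fixed set of catalytic, core and isoform genes, the 3 smallest adjusted p-values in each direction for differences of responses and for the Mock comparison, and the members nearest the 5 CPM limit. The members, the pathway lists and these rules were chosen with earlier results of these data known. Coding lengths and shared 50-base windows came from GENCODE M21, and promoter sequences from RefSeq (GRCm38.p6), both of an earlier assembly than the files and used without the files' coordinates. Figures were made with matplotlib 3.10.9. A result on a single gene is not reported here.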

Additional observations from a re-analysis of the deposited data

Results flagged for a closer look

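Differences between responses passed the edgeR test for many members, and the 12 given here were among the lowest adjusted p-values on either side, 3 per side and contrast (Cox6c tied with Atp5mpl). For the response under the DC2.4 label minus that under the 4T1 label, they were Atp5mpl (1.29), Cox7c (1.27) and Cox7b (0.98) on the positive side and Atp5g1 (-0.82), Atp5l (-0.66) and Sdhb (-0.13) on the negative side, all on the log2 scale. For the mRNA response under the 4T1 label minus the vesicle response, they were Atp5l (0.51), Uqcrq (0.26) and Atp5f1 (0.13) on the positive side and Cox7c (-0.65), Cox6a1 (-0.44) and Sdha (-0.39) on the negative side. The 4T1-labelled libraries enter both contrasts with opposite sign, so Cox7c and Atp5l in both sets are not independent cases. With 2 libraries per group, no test for a single outlying library was made.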

How the results depend on the processing

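With 2 libraries per group and cell line labels that marker genes contradict, these values describe the libraries more firmly than the lines. Depth limited Cox6a2 under the DC2.4 label and the isoforms with at most 4 counts per library. Of 3033 recomputed values of single genes, 2847 kept their direction and their side of the threshold, 139 lost and 44 gained a call, and 3 turned: with the length trend removed, Atp5a1 under the DC2.4 label (-0.0093), and Cox4i1 (0.061) and Ndufv1 (0.052) between the Mock groups. The preparation as a replicate block gave 63 members higher and 1 lower under the DC2.4 label, 17 and 23 under the 4T1 label and 25 and 0 by edgeR with vesicles. It took away the calls of Atp5a1 with vesicles (adjusted p = 0.0502) and Uqcrc2 for the difference of mRNA responses (adjusted p = 0.0543), added Uqcrfs1 with vesicles (adjusted p = 0.027) and Ndufs1 for that difference (adjusted p = 0.048), and under the DC2.4 label it took away the calls of Ndufs3 (adjusted p = 0.0589) and Atp5s (adjusted p = 0.0602) and added that of Ndufs7 (adjusted p = 0.0399).

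Leaving out 1 library leaves its group with a lone library, assumed to vary like the other groups. It gave 59 to 62 members higher, 1 to 1 lower and medians of 0.34 to 0.38 under the DC2.4 label, and 14 to 16, 18 to 21 and -0.020 to 0.012 under the 4T1 label. With vesicles it gave 11 to 21 higher, 0 to 0 lower and medians of 0.068 to 0.075. For the difference of mRNA responses it gave 53 to 58, 2 to 4 and 0.37 to 0.40, for 4T1 mRNA minus vesicles 5 to 9, 24 to 28 and -0.090 to -0.074, and between Mock groups 12 to 13, 51 to 57 and -0.41 to -0.34. Medians under the DC2.4 label became 0.35 with DESeq2 size factors, 0.38 with limma-voom, 0.38 without a filter, 0.20 without the length trend and 0.35 at a limit of 20 CPM. Under the 4T1 label they became 0.020 with only the libraries compared and -0.038 without the length trend, both near 0. With vesicles they became 0.079 with DESeq2, 0.078 with its size factors and 0.063 without the length trend, and 1 member was lower without a filter. The difference of mRNA responses had a median of 0.39 without a filter, 0.27 without the length trend and 0.36 at 20 CPM. For 4T1 mRNA minus vesicles, 5 members were higher with DESeq2 and 5 without the length trend, and medians became -0.096 with DESeq2, -0.096 with its size factors, -0.058 with only the libraries compared and -0.11 without the length trend. Between Mock groups medians became -0.41 without a filter, -0.41 with only the libraries compared and -0.30 without the length trend. Log2 ratios of the summed levels of complexes I to V under TMM scaling were 0.33, 0.11, 0.33, 0.44 and 0.25 under the DC2.4 label and 0.013, -0.082, 0.077, -0.16 and -0.045 under the 4T1 label. Causes of these shifts were not tested.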
